A study of Mus musculus with 2 samples.

Results

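The non-clustered protocadherins Pcdh7, Pcdh8, Pcdh9, Pcdh10, Pcdh15, Pcdh17, Pcdh18 and Pcdh20 are 8 of the 21523 coding genes that RefSeq places on chromosomes 1 to 19 and X. They were taken by name. Each was given the peaks of the histone mark H3K9me2 that overlapped its RefSeq body extended by 2 kb on both sides, and the peaks within 1 Mb of that body, because most of these genes stand beside gene deserts. Coordinates are those of mm10, and gene bodies come from GRCm38.p6, the assembly behind that build. In all, 5 of the 6253 transgenic peaks and 1 of the 743 wild-type peaks overlapped a member gene or its 2 kb, and 48 transgenic and 3 wild-type peaks lay within 1 Mb.

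The peaks were called in TBC1D3-transgenic cortex and in wildtype cortex, both from C57BL/6 mouse embryos at embryonic day 15.5, with 1 library each. TBC1D3 is a gene of apes and humans, and the series title ties it to G9a, an enzyme that writes H3K9me2. The promoter that drives the transgene and the number of embryos behind a library are not given in the sources used here. The transgenic library held 20697113 ChIP tags and the wild-type library 26735120 after filtering, each called against its own input. No test between genotypes was possible with 1 library each, and every 95% interval below covers counting error only. Peak lists alone do not allow a check of the tissue by marker genes, and in bulk cortex they do not tell how many cells carried a mark.

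Protocadherins are cell-surface adhesion proteins of the cadherin superfamily. Unlike the clustered protocadherins, the members described here are encoded by genes scattered through the genome, several of them isolated in long gene-poor stretches. The delta-1 group (Pcdh7 and Pcdh9) and the delta-2 group (Pcdh8, Pcdh10, Pcdh17 and Pcdh18) differ in the number of extracellular cadherin repeats and in the motifs of their tails. Pcdh20 is usually placed outside both groups and is described here beside delta-2. In the developing brain they are expressed in overlapping, region-specific patterns and act in axon growth, synapse formation and cell sorting. Pcdh15 stands apart and is best known as one end of the filament that opens the mechanotransduction channel of hair cells. H3K9me2 is a broad, repressive histone mark that covers large silent domains. The peaks called here were narrow, with a median width of 115 bp in the transgenic and 57 bp in the wild-type list. Their counts do not measure how far such domains extend.

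Neither list held a peak in the promoter window of any of the 8 genes, defined as 250 bases before to 50 bases after the first start that RefSeq lists. Over the 32619 RefSeq promoter windows searched, 0.0582% held a transgenic peak and 0.00613% a wild-type peak, so a peak in such a window was rare throughout the genome. The windows of 4 members are printed here with each CG dinucleotide in capitals, because the peaks nearest to a member lay beside Pcdh8 and Pcdh10, the gene with most peaks inside it was Pcdh15 and the densest surroundings were those of Pcdh7. All are from RefSeq, GRCm38.p6, 5′ to 3′ in the direction of transcription.
Pcdh8 (chr14:79771263-79771562, minus strand): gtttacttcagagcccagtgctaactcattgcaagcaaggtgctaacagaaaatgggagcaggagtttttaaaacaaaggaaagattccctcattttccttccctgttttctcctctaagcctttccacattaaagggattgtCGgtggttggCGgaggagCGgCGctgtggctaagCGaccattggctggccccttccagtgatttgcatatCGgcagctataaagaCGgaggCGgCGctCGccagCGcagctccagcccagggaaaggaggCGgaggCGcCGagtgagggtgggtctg
Pcdh10 (chr3:45378148-45378447, plus strand): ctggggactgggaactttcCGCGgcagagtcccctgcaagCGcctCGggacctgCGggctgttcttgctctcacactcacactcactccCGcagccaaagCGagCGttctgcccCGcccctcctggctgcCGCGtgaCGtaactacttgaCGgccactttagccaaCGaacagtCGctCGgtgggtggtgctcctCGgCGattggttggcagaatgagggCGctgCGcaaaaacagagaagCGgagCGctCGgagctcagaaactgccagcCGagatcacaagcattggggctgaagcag
Pcdh15 (chr10:73821617-73821916, plus strand): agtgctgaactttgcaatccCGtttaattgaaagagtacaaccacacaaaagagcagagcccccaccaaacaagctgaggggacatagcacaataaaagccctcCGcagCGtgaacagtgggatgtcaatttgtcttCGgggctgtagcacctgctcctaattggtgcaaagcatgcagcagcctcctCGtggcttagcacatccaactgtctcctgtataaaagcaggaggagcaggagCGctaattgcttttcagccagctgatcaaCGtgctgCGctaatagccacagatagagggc
Pcdh7 (chr5:57717831-57718130, plus strand): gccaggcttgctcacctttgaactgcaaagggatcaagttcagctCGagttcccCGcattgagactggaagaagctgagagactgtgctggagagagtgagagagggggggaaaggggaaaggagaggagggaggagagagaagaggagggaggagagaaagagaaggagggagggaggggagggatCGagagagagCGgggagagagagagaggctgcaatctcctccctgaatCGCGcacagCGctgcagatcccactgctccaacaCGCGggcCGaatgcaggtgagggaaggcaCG

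The windows differed in CG content, a feature that the choice of genes did not use. CG, which reads the same on both strands, occurred 26 times in Pcdh17, 24 in Pcdh10, 23 in Pcdh18, 18 in Pcdh9, 14 in Pcdh8, 11 in Pcdh7, 8 in Pcdh15 and 4 in Pcdh20. The median of 32851 RefSeq promoter windows was 7, so 7 of the 8 members lay above it and Pcdh20 below it. At least 26 CG, the count of Pcdh17, were found in 16.9% of windows, and at least 4, the count of Pcdh20, in 68.6%. From the edge of the window the nearest transgenic peak was 7.35 kb away in Pcdh8 and 63.0 kb in Pcdh10. It was between 127 kb (Pcdh18) and 304 kb (Pcdh9) away in the other members.

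**Figure D1:**
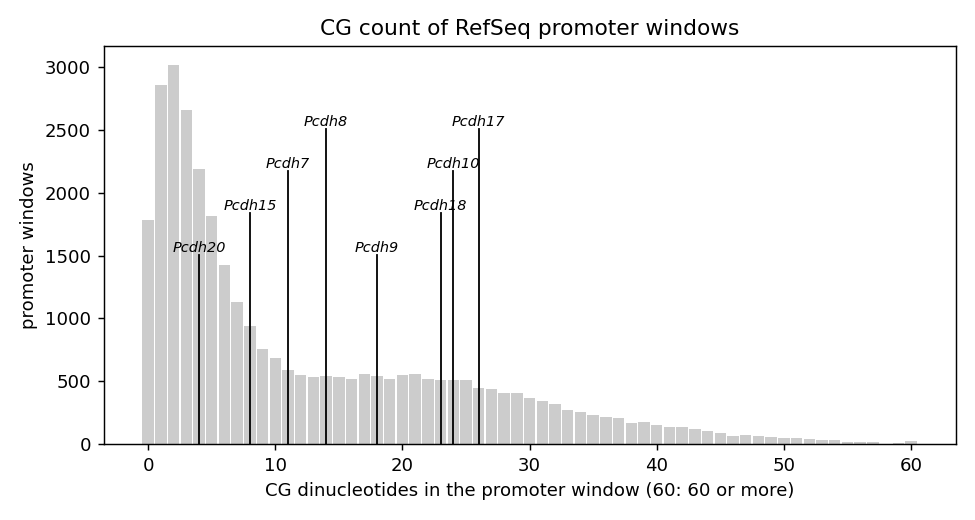
Number of CG dinucleotides (horizontal axis) in 300-base RefSeq promoter windows, with the number of windows on the vertical axis; counts of 60 or more share the last bar. Black lines mark the 8 protocadherin genes, of which Pcdh20 with 4 lies below the median of 7 and Pcdh17 with 26 lies highest.

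Inside the genes, peaks were held by the longest members. Pcdh15 held 3 transgenic peaks and 1 wild-type peak, Pcdh9 held 2 transgenic peaks and 0 wild-type peaks, and the other 6 genes held 0 in both libraries. A transgenic peak was thus present in 2 of 8 members, where 5.69% of all coding genes held one, and a wild-type peak in 1 of 8, where 0.911% of all coding genes did. The bodies differ greatly in length, and run from 4.54 kb in Pcdh8 to 1554 kb in Pcdh15. Long genes in general held peaks more often. Among coding genes within 1.5-fold of the length of Pcdh15, 96.2% of 52 held a transgenic peak (median 3) and 36.5% a wild-type peak. For the length of Pcdh9 the shares were 86.3% and 28.8% of 139 genes, with a transgenic median of 2. Both transgenic counts were thus at the median of genes of like length. The wild-type median was 0 for either length, and 19 of the 52 genes held at least 1 wild-type peak, as Pcdh15 did.

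Pcdh7 was long and carried no peak. Its body of 417 kb held 0 transgenic and 0 wild-type peaks, where the mean densities of chromosome 5 give 0.923 and 0.1104. Of 484 coding genes of like length 54.1% held a transgenic and 10.1% a wild-type peak, and 222 of them held 0 transgenic peaks, as Pcdh7 did. A count of 0 allows up to 3 peaks, or 7.12 per Mb over this gene, so a shortage was not detectable. The 5 members under 100 kb (Pcdh8, Pcdh10, Pcdh17, Pcdh18 and Pcdh20) held 0 peaks in both libraries, where 2.58% of coding genes under 100 kb held a transgenic and 0.236% a wild-type peak. Over all 8 bodies the density was 1.64 transgenic peaks per Mb (0.531 to 3.82) and 0.327 wild-type peaks per Mb (0.00828 to 1.82). Set against the surroundings of the same genes, the transgenic ratio was 0.607 (0.188 to 1.53) and the wild-type ratio 2.61 (0.0443 to 50.2), and both intervals include 1.

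**Figure D2:**
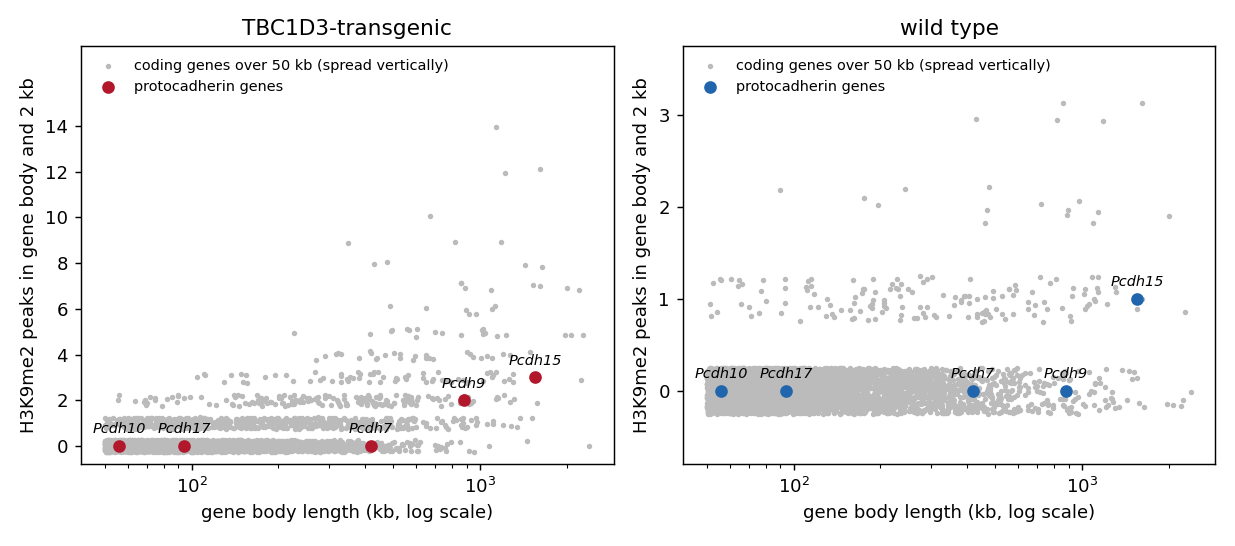
H3K9me2 peaks in the body and 2 kb flanks (vertical axis) against gene body length in kb (horizontal axis, log scale) for coding genes over 50 kb, transgenic on the left and wild type on the right. Grey points are spread vertically around their whole count; Pcdh15 (3 and 1 peaks) and Pcdh9 (2 and 0) lie among genes of like length, and Pcdh7, Pcdh17 and Pcdh10 lie at 0 in both.

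Around the genes, transgenic peaks were as dense as elsewhere on the autosomes. The 8 genes with 1 Mb on each side span 19.03 Mb and held 48 transgenic peaks (35.4 to 63.6), where the autosomal mean gives 48.2. This is 2.52 peaks per Mb, against 2.53 in the rest of the autosomes, a ratio of 0.995 (0.733 to 1.32). The same span held 3 wild-type peaks (0.619 to 8.77), where the autosomal mean gives 5.87. The wild-type ratio was 0.509, and its interval (0.105 to 1.49) includes 1. All 8 members had a transgenic peak within 1 Mb, where 85.1% of coding genes do, and 3 (Pcdh8, Pcdh15 and Pcdh18) had a wild-type peak, where 34% do. The median member had 2.04 transgenic peaks per Mb, against 1.499 over all coding genes, chromosome X among them. Over the other 20552 autosomal coding genes, the closer reference for these autosomal members, it was 1.71. The median was 0 wild-type peaks per Mb for the members and for all coding genes.

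Isolation from other genes is what most of these loci share. Pcdh7, Pcdh9, Pcdh10 and Pcdh17 had 0 other coding genes within 1 Mb, Pcdh18 and Pcdh20 had 1 each, Pcdh8 had 12 and Pcdh15 had 15. The 6 isolated members held 34 transgenic peaks at 2.52 per Mb (1.75 to 3.53), and Pcdh8 and Pcdh15 together held 14 at 2.52 per Mb (1.38 to 4.23). The 2 sets of members thus had nearly the same transgenic density, but the second is of 2 genes that differed, Pcdh8 at 1.995 and Pcdh15 at 2.81 per Mb. The median of the 6 isolated members was 2.04 transgenic peaks per Mb, against 2.48 (quartiles 1.495 and 3.22) in 104 other autosomal coding genes with at most 1 coding neighbour. In 1879 other autosomal coding genes with 12 to 15 coding neighbours the median was also 2.48 (quartiles 1.84 and 3.49). Wild-type peaks were 1 near the 6 isolated members and 2 near Pcdh8 and Pcdh15, too few to order.

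**Figure D3:**
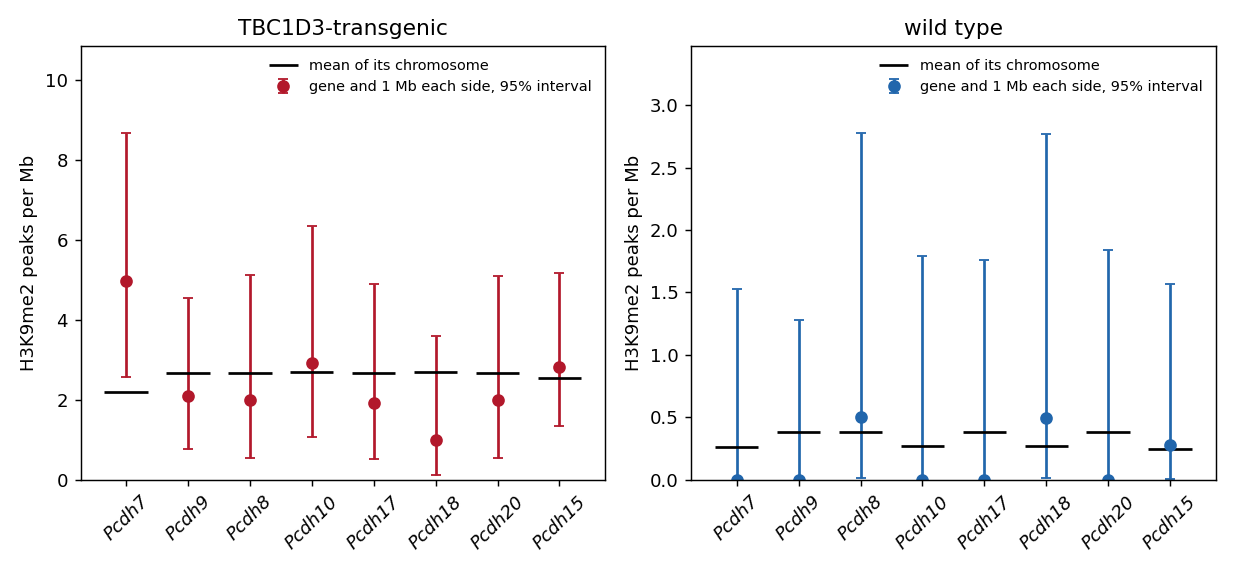
H3K9me2 peaks per Mb (vertical axis) over each gene and 1 Mb on each side, transgenic on the left and wild type on the right; points are the counts of 1 library, bars exact Poisson 95% intervals and black lines the mean of the gene's chromosome. The transgenic interval of Pcdh7 (2.57 to 8.67) lies above its chromosome's mean of 2.19, and the intervals of the other 7 genes include theirs, as do all 8 in the wild type.

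Pcdh7 had the densest transgenic surroundings. Pcdh7 is a delta-1 protocadherin whose Xenopus counterpart acts in neural tube formation and retinal axon growth, and it lies at chr5:57716145-58133236 with its nearest coding genes Stim2 and G6pd2 3595 and 3676 kb away. It had 12 transgenic peaks within 1 Mb (6.20 to 21.0), at 4.96 per Mb, where the mean of chromosome 5 gives 5.30 peaks, and 0 wild-type peaks, where that mean gives 0.634. Its density was 1.96 times that of the rest of the autosomes (1.01 to 3.43), and 4.01% of autosomal coding genes had surroundings at least as dense. It is the highest of 8, which the interval does not allow for. All 12 peaks lay outside the gene, 7 upstream and 5 downstream, and a stretch of 735 kb that includes the whole gene held none. Longer stretches without a transgenic peak, of 869.5 and 1150 kb, included the whole of the shorter genes Pcdh17 and Pcdh20.

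The strongest transgenic peak around Pcdh7 was at chr5:57483833-57483947, 232 kb upstream, with 9 fragments over its summit, a fold enrichment of 5.43 and a q of 0.0673. Fragments are the extended ChIP reads stacked at the summit, fold enrichment is the authors' caller's ratio of ChIP to local background, and q is its p adjusted for the many positions tested. By fold this peak stood 60th of 6253. A weaker one at chr5:57482961-57483125 (5 fragments, fold 3.02) lay 0.707 kb away, the closest pair in these surroundings. A further peak, at chr5:58841318-58841441 and 708 kb downstream, shared the lowest q of the list (fold 4.71). The nearest wild-type peak was 8477 kb from Pcdh7.

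Pcdh9, the other delta-1 member and an adhesion protein of cortical neurons, spans 879 kb at chr14:93013700-93892834. It had 6 transgenic peaks within 1 Mb (2.20 to 13.1; 2.08 per Mb) and 0 wild-type peaks. Its 2 intragenic transgenic peaks lay 8.60 kb apart, at chr14:93273766-93273880 (6 fragments, fold 3.52) and chr14:93282483-93282593 (5 fragments, fold 3.20). Both had folds under the list's median of 3.62, with q of 0.216 and 0.297. They lay 617 and 608 kb into the gene from its first listed start, on the minus strand. A second pair, 8.36 kb apart, lay downstream, where the stronger peak at chr14:92129318-92129451 had 8 fragments, a fold of 4.89 and a q of 0.0673. The 2 delta-1 members together had 3.40 transgenic peaks per Mb, against 1.97 in the 4 delta-2 members and Pcdh20. The interval of that ratio (1.73, 0.862 to 3.44) includes 1. The ratio covers these members alone, and further genes of both groups did not enter it.

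The delta-2 members and Pcdh20 had from 2 to 6 transgenic peaks within 1 Mb and none inside. Pcdh10 (OL-protocadherin), which binds the WAVE subunit Nckap1 and guides forebrain axons, had 6 (2.20 to 13.1; 2.92 per Mb). Its nearest peak, chr3:45441497-45441607, began 6.92 kb past the 3′ end of the gene, with 8 fragments, a fold of 4.29 and a q of 0.0873. That was the shortest distance from any member to a peak outside it. Pcdh8, known in rat as arcadlin and induced there by neuronal activity, had 4 (1.09 to 10.2; 1.995 per Mb). One of these, chr14:79778912-79779022 (7 fragments, fold 4.03, q 0.132), lay 7.60 kb upstream of its start. With flanks of 10 kb these 2 peaks would count as peaks of Pcdh10 and Pcdh8.

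Pcdh17, which gathers WAVE proteins at contacts between axons, had 4 transgenic peaks within 1 Mb (1.91 per Mb), all with 5 or 6 fragments and folds of 3.02 to 3.52. The nearest lay 195 kb upstream. Pcdh20 had 4 (1.99 per Mb), and the strongest, at chr14:89341453-89341565 and 870 kb upstream, had 8 fragments, a fold of 4.80 and a q of 0.0673. These 2 genes had 0 wild-type peaks within 1 Mb, like Pcdh10, and their nearest wild-type peaks were 1159 and 5180 kb away.

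Pcdh18, whose tail binds the Reelin adaptor Dab1, had the sparsest transgenic surroundings and the strongest of the 3 wild-type peaks. It had 2 transgenic peaks within 1 Mb (0.242 to 7.22; 0.993 per Mb), with folds of 4.03 and 3.80, and 1 wild-type peak (0.0253 to 5.57). The wild-type peak at chr3:49966880-49966944, 209 kb upstream of the gene, had 9 fragments, a fold of 5.98 and a q of 0.289. By fold and by p it stood 4th of the 743 wild-type peaks. No transgenic peak lay within 336 kb of it. At chromosome 3 means, 5.40 transgenic and 0.552 wild-type peaks would lie in these surroundings, and both intervals include those values. Between Pcdh7 and Pcdh18, the extremes among the members, the transgenic densities differed 5.0-fold (1.11 to 46.0), as a description of the ends of an order.

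Ordered by transgenic density the members ran from Pcdh7 through Pcdh10, Pcdh15, Pcdh9, Pcdh8, Pcdh20 and Pcdh17 to Pcdh18. Every pair of neighbours in that order had overlapping intervals, so the order among them is not resolved by these counts.

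**Figure D4:**
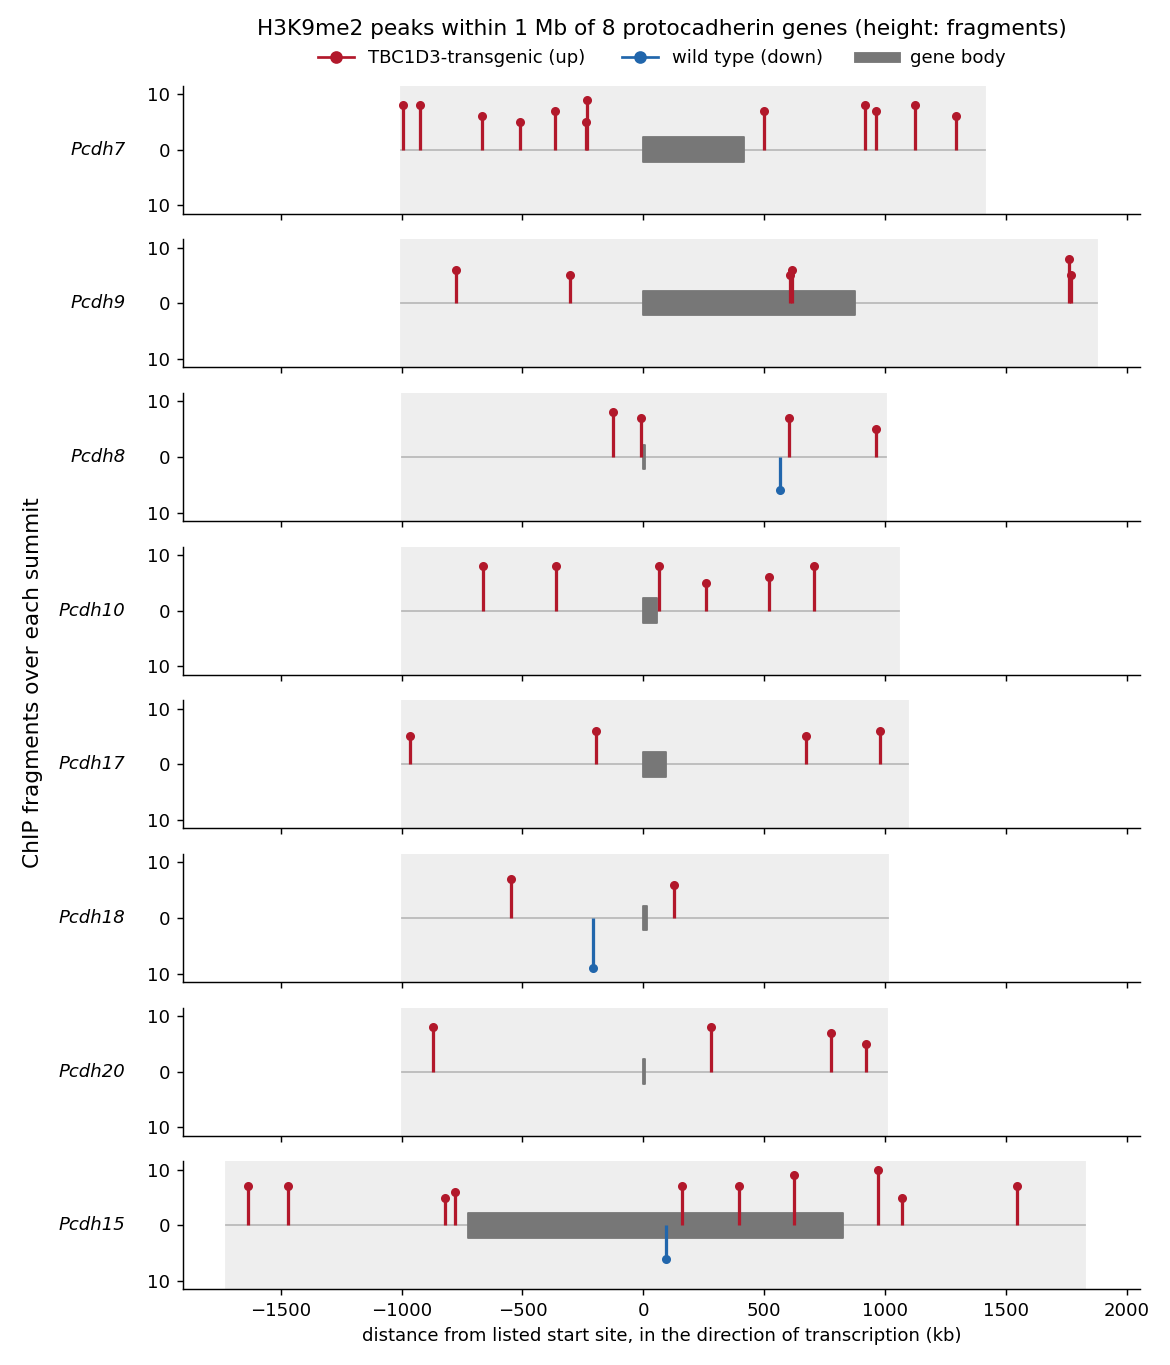
Positions of H3K9me2 peaks around the 8 genes, as distance in kb from the first listed start in the direction of transcription (horizontal axis); stems up are transgenic peaks, stems down wild-type peaks, and their height is the number of ChIP fragments over the summit. Grey bars are gene bodies and pale grey the 1 Mb on each side; the 12 transgenic peaks near Pcdh7 all lie outside the gene, and the 3 wild-type peaks lie near Pcdh8, Pcdh18 and inside Pcdh15.

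Pcdh15, partner of Cdh23 in the tip link of hair cells, is the largest member and the only 1 with peaks of both libraries inside it. Its RefSeq body, chr10:73096277-74649831, includes predicted transcripts and begins well upstream of the listed start at 73821867. The 3 transgenic peaks lay 160, 398 and 622 kb past that start. They were chr10:73981542-73981702 (7 fragments, fold 3.63, q 0.168), chr10:74219364-74219474 (7 fragments, fold 3.82, q 0.145) and chr10:74443750-74443860 (9 fragments, fold 5.01, q 0.0673). The last of them, nearest to the 3′ end, was the strongest. The wild-type peak at chr10:73917239-73917295 had 6 fragments, a fold of 3.88 and a q of 1, and lay 64.2 kb from the nearest transgenic peak. For the body of Pcdh15 the mean densities of chromosome 10 give 3.96 transgenic and 0.378 wild-type peaks. The intervals of its 3 transgenic (0.619 to 8.77) and 1 wild-type peaks (0.0253 to 5.57) include those values.

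Within 1 Mb Pcdh15 had 10 transgenic peaks (4.80 to 18.4; 2.81 per Mb) and no wild-type peak beyond the intragenic 1. On the upstream side 2 transgenic peaks lay in A330049N07Rik, which RefSeq lists as a long noncoding RNA. Downstream, chr10:74791974-74792085 rested on 10 fragments, the most of any peak around the 8 genes, with a fold of 3.70. Of all other coding genes 13 held the same 3 transgenic and 1 wild-type peaks as Pcdh15, and those closest to it in length were Tenm3 (1297 kb), Ptprt (1139 kb) and Dcc (1098 kb). Likeness here rests on 2 counts, 1 per library. Coding genes over 500 kb, to which Pcdh15 and Pcdh9 belong, held a transgenic peak in 84.6% and a wild-type peak in 24.2% of 227 cases.

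The peaks around the 8 genes were of similar strength to those of the whole lists. The 48 transgenic peaks had a median of 7 fragments (5 to 10), a median fold of 3.80 (2.85 to 5.43) and q from 0.0673 to 0.374. The list of 6253 had a median of 6 fragments and a median fold of 3.62. At least 8 fragments stood behind 15 of the 48, or 31.3% (18.7 to 46.3), against 21.8% (20.8 to 22.8) of the other transgenic peaks, and the interval of the 48 includes the share of the rest. Ranked by q, 15 of 48 transgenic peaks (31.3%) were at or under 0.1, against 23.1% of the other transgenic peaks. The lowest q was 0.0673 among all transgenic and 0.136 among all wild-type peaks, so 0 peaks reached 0.05 and each peak named here is a weak call.

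**Figure D5:**
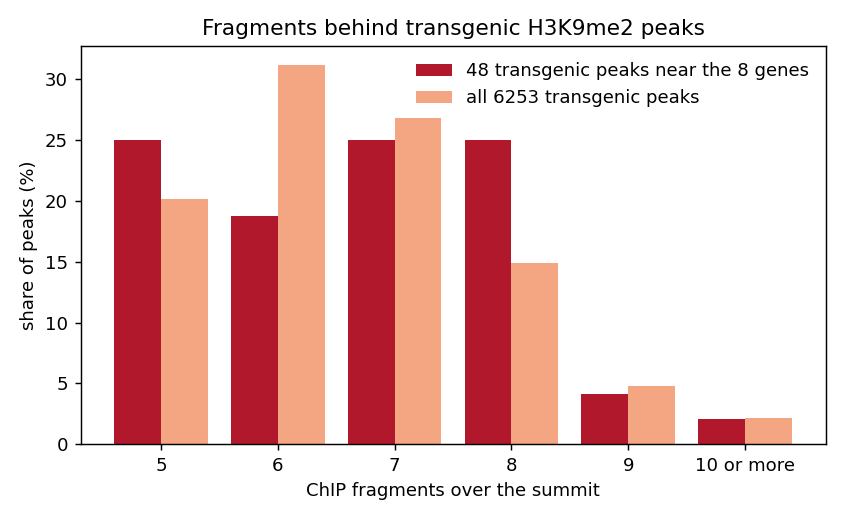
Share of transgenic peaks in percent (vertical axis) by the number of ChIP fragments over the summit (horizontal axis), for the 48 peaks within 1 Mb of the 8 genes (dark) and all 6253 transgenic peaks (light). Peaks near the genes rest on 5 to 10 fragments. Their share was higher than that of the whole list at 5 (25% against 20.2%) and 8 fragments (25% against 14.9%). It was lower at 6 fragments (18.75% against 31.2%), and each share near the genes is of 48 peaks.

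The balance of the libraries near the genes was close to that of the whole series. Of the 51 peaks within 1 Mb, 48 or 94.1% were transgenic (83.8 to 98.8), against 89.3% (88.6 to 90.1) of all other peaks. The lists were called with a fragment extension of 111 bp in the transgenic and 57 bp in the wild-type library, and this difference in the calls cannot be told apart from genotype.

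Peaks lay on both sides of the genes. Upstream were 21 of the 48 transgenic peaks, inside 5 and downstream 22. Of the 43 outside, 13 lay within 250 kb of the gene, 5 between 250 and 500 kb, 12 between 500 and 750 kb and 13 between 750 and 1000 kb. The nearest and the farthest of these distances thus held equal numbers. Of the 29 other coding genes within 1 Mb, 1 held a transgenic and 0 a wild-type peak, where 5.69% and 0.911% of all coding genes did. It was Vwa8 near Pcdh8, the longest of the 29 at 353 kb, with its peak at chr14:79167482-79167616 (fold 3.82). The wild-type peak near Pcdh8, chr14:79207309-79207365 (6 fragments, fold 4.24, q 1), lay 39.7 kb from the peak in Vwa8.

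Pcdh8, Pcdh17, Pcdh20 and Pcdh9 sit along a gene-poor stretch of chromosome 14. From Pcdh8 through Pcdh17 and Pcdh20 to Pcdh9 it runs 14.1 Mb and holds 7 coding genes in all, the others being Olfm4, Diaph3 and Tdrd3. It held 31 transgenic peaks (2.19 per Mb; 1.49 to 3.11) and 1 wild-type peak, where the autosomal means give 35.8 and 4.36. The ratios to the rest of the autosomes were 0.865 (0.587 to 1.23) and 0.228 (0.00577 to 1.28). On chromosome 3 the 4.38 Mb from Pcdh10 to Pcdh18 hold 1 more coding gene, Pabpc4l, with 8 transgenic peaks and 1 wild-type peak. On chromosome 3 the ratios were 0.720 (0.311 to 1.42) and 0.739 (0.0187 to 4.13), so neither stretch differed from the rest of the autosomes beyond counting error.

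Related genes were set beside the members by name. The other non-clustered protocadherins Pcdh1, Pcdh11x, Pcdh12 and Pcdh19 held 0 peaks in both libraries. Of all coding genes 5.69% held a transgenic and 0.911% a wild-type peak. For Pcdh11x with its 620 kb the X chromosome means give 0.600 transgenic and 0.00372 wild-type peaks. For Pcdh1, Pcdh12 and Pcdh19 the means of their chromosomes give 0.0857, 0.0606 and 0.106 transgenic peaks. Within 1 Mb all 4 had a transgenic peak and 2 a wild-type peak, where 85.1% and 34% of coding genes do. Of 9 Fat, Dachsous and flamingo cadherins, large relatives that act in planar polarity and tissue growth, 3 held transgenic peaks. Over all coding genes 5.69% held one, but these 9 were not set beside genes of like length. Fat3 (592 kb) held 4, where the mean of its chromosome gives 1.55, and Fat2 (86.9 kb) and Dchs2 (236 kb) held 1 each. Among coding genes over 500 kb, as Fat3 is, 84.6% held a transgenic peak. Dchs2 also held the sole wild-type peak of that list (fold 3.45).

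Genes of proteins that act with protocadherins were counted in the same way. Of 9 genes of the WAVE complex and of enzymes tied to protocadherin tails, among them Nckap1, Cyfip1 and Taok2, 0 held a peak in either library. Of 10 tip-link partners Cdh23, the direct partner of Pcdh15, held 1 transgenic peak (chr10:60466252-60466362, 8 fragments, fold 4.08), Tmc2, a subunit of the hair-cell channel, held 1 (7 fragments, fold 3.82), and 0 held a wild-type peak. Cdh23 is 394 kb long and Tmc2 70.0 kb, and the means of their chromosomes give 1.01 and 0.177 transgenic peaks. Over all coding genes, as given above, 5.69% held a transgenic and 0.911% a wild-type peak.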

How the data were processed

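H3K9me2 ChIP-seq gave 1 deposited peak list per genotype. Per the file headers, the authors called each library against its own input with MACS version 2.1.0.20150420, a p cutoff of 0.001, no model, summit calling and extensions of 111 bp (transgenic) and 57 bp (wild type). BWA, with no version, and mm10 come from the submitters' processing notes. The deposited pileup signal counts extended fragments after scaling the larger of ChIP and input to the smaller, and dividing it by 1 (transgenic) or 0.951 (wild type) gave whole fragments within 0.02 for 100% of peaks. The deposited fold is a ratio of pileup plus 1 to background plus 1. The p-value and q-value columns, as −log10, are the authors' deposited output of the caller, although its headers state that q was not to be calculated.

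Peaks were counted per gene (overlap of at least 1 bp) on RefSeq GRCm38.p6 genes that start at or above 3 Mb. Chromosome spans ran from 3 Mb to the last gene's end. All 8 members matched a promoter sequence. Strand and starts come from that table. Counts have exact Poisson, shares exact (Clopper-Pearson) and ratios exact conditional 95% intervals (scipy 1.17.1). The counting was tested on simulated data. Peak values are given for the members, coding neighbours and list genes with a peak, and the 3 genes nearest in length with the counts of a member holding at least 3 peaks; other neighbours and list genes are named for their place or their count of 0. Members and lists were chosen with earlier results of these data known. Sequence under the peaks was not analysed here.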

Additional observations from a re-analysis of the deposited data

How the results depend on the processing

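With 1 library per genotype no library could be left out, and no paired analysis was possible because each genotype has 1 sample. Weak peaks and few counts limit what the lists show. The 5 transgenic peaks inside members became 1 at a fold of at least 5, 1 at a −log10 p of at least 5 and 1 with only the 743 transgenic peaks of lowest q and p, and the 1 wild-type peak became 0 under the first 2. The 48 transgenic peaks within 1 Mb became 2, 20 and 8 under the same 3 settings, 23 within 500 kb and 78 within 2 Mb. The 3 wild-type peaks became 1 at either threshold and 7 within 2 Mb. These changes follow from shorter lists or other distances. The transgenic density ratio of 0.995 became 1.57 at a fold of at least 5 and 1.40 with the 743 peaks, and the wild-type ratio of 0.509 became 2.05 at a fold of at least 5; the cause was not tested. All 19 alternative intervals of the 2 ratios include 1, with Pcdh7, Pcdh9 or Pcdh15 left out among them. Without Pcdh20, an alternative chosen after seeing the data, the transgenic ratio of delta-1 to delta-2 members was 1.74 (0.835 to 3.64).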

Other observations

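Among the 48 transgenic peaks near the protocadherins, 4 stood on a raised local background. Beside Pcdh7, chr5:56722875-56723035 and chr5:56795883-56795993 had 8 fragments over a background of 1.97 fragments each, and so did chr3:45017020-45017156 upstream of Pcdh10. The fourth was chr10:74791974-74792085 downstream of Pcdh15, with 10 fragments over 1.97. The lowest background in the list was 0.841. A background above 1.9 was found in 8.33% of the 48 (2.32 to 19.98) and in 2.21% of the whole transgenic list (1.86 to 2.60), and this value was chosen after the peaks were seen. Whether the raised background plays a part in the density near Pcdh7 was not tested.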
